A study of Mus musculus with 48 samples.

Results

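Messenger RNA of the mouse pars tuberalis under long days was compared with that under short days at the same clock time, and the question was how the difference between the day lengths changed over the day. The comparison holds 24 of the 48 arrays of the series. These are the 12 arrays labelled as 2 weeks of long days and the 12 labelled short day, paired by the clock time in their titles at hours 3, 7, 11, 15, 19 and 23, with 2 arrays a side at each hour. Long-day mice had 16 h of light a day, on at clock hour 3 and off at hour 19. Short-day mice had 8 h, on at hour 7 and off at hour 15. All were male CBA/N mice labelled as 8 weeks old and kept under short days for 3 weeks beforehand, after which 1 group moved to long days and the other stayed. The tissue was punched with a 0.5 mm needle from frozen brain slices of 0.5 mm, and each array measured total RNA pooled from 25 mice. The design text says that the procedure was repeated for the 2 replicates, and nothing further says that they are separate. Every p-value here therefore measures the spread between arrays, taken over all 48 arrays of the series unless stated otherwise. The arrays not compared here come from mice labelled as younger and kept under other light schedules. The light periods share their midpoint, hour 11, and the 8 h of additional light lie on either side of the short day. Arrays at hours 7 and 19 follow 4 h that were lit under long days and dark under short days. Those at 11 and 15 follow 4 h lit in both groups, and those at 23 and 3 follow 4 h dark in both. The hours of lights-on, 3 under long and 7 under short days, are themselves sampling times, and whether those tissues were taken before or after the lamps came on is not given in the sources used here.

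The pars tuberalis wraps the pituitary stalk and carries melatonin receptors at high density. Melatonin is secreted at night, so the length of its nightly signal follows the length of the night. In mammals, long days raise thyrotropin in this tissue, and thyrotropin acts on neighbouring tanycytes, where deiodinase 2 activates thyroid hormone. The circadian clock of the tissue is a feedback loop. ARNTL (BMAL1) with CLOCK or NPAS2 drives transcription from E-boxes, the PER and CRY proteins repress that drive, and the REV-ERB and ROR receptors act on Arntl itself.

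Promoter sequences of genes whose day-length difference changed with the hour are shown here, since 2 sets of them appear below, genes high at long-day lights-on and genes of the clock. Each is the window of 250 bases before to 50 bases after a gene start in RefSeq's annotation of GRCm38.p6, read 5′ to 3′ on the gene's strand, with the motif found in capitals. The Gadd45b window (chr10:80929841-80930140, plus strand) holds an E-box, CACGTG, 185 bases before the start. The Btg2 window (chr1:134079106-134079405, minus strand) holds a cAMP response element, TGACGTCA, 166 bases before it. The Cry1 window (chr10:85185005-85185304, minus strand) holds an E-box 60 bases before the start. The Timeless window (chr10:128237816-128238115, plus strand) holds a D-box, TTATGTAA, 157 bases before it. One of the listed Arntl windows (chr7:113207261-113207560, plus strand) holds a ROR element, TAGGTCA, 30 bases after the start.
Gadd45b: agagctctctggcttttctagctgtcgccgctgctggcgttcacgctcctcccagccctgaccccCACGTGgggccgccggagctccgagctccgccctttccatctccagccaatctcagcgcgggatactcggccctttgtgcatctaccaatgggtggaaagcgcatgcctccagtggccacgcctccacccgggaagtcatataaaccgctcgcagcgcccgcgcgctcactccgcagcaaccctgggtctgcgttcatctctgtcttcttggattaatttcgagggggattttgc
Btg2: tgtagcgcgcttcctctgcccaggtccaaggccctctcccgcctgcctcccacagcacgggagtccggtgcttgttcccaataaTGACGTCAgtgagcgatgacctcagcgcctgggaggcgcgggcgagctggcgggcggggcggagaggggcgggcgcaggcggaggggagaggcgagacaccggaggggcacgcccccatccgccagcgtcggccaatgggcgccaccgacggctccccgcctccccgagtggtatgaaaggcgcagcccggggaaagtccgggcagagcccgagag
Cry1: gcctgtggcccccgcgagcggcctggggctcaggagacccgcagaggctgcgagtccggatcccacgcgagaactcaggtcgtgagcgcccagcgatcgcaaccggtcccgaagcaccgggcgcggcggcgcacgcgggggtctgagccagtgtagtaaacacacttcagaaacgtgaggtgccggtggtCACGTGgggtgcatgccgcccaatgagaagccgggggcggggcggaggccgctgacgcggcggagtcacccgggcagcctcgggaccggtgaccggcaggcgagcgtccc
Timeless: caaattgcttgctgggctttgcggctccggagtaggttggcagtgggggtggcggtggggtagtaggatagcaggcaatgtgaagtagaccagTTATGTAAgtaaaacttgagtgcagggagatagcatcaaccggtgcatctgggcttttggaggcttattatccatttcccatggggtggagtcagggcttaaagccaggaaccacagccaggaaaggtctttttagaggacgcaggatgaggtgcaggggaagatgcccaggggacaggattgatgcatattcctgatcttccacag
Arntl: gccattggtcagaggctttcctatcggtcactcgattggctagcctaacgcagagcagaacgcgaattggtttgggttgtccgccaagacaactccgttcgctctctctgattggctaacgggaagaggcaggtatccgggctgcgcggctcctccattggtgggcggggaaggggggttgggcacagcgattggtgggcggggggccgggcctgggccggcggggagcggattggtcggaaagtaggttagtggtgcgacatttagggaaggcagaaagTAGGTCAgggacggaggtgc

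The 4 motifs were searched by these letters on both strands, and none of them overlaps another in the windows shown. Of the 85 genes described below, 68 were in the promoter table, and 15 of these (22.1%) had the E-box, against 8.09% of all 27025 genes in the table. The 15 include Cry1, Ciart, Tef, Gadd45b, Egr2, Maff, Arrdc4, Cplx3, Fkbp5 and Ppp1r3c. The cAMP response element was found for 4 of the 68 (Btg2, Dio2, Maff and Trip6) and for 2.03% of all genes. The D-box was found for 3 (Coq10b, Per3 and Timeless) against 1.11%, and the ROR element for 2 (Arntl and Zranb3) against 2.97%. A match is a description of the window and says nothing of binding.

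Values are log2 RMA signals, given per array, and differences are long minus short days with the standard error (SE) from limma. A gene passed where its adjusted p lay below 0.05. The array medians lay between 6.98 and 7.03, and the defining genes of the tissue were high on every array: Tshb, the beta subunit of thyrotropin, at 13.76 to 14.43 under long days and 9.72 to 11.26 under short days, and Cga, its alpha subunit, at 13.38 to 14.11 under long days and 13.21 to 14.13 under short days. In pooled tissue, fewer cells of a type and less RNA per cell cannot be told apart. Hormones of the neighbouring pars distalis, Gh or Prl, were above 10 on 4 arrays, which were long-day hour 7 replicate 2, hour 11 replicate 1 and hour 15 replicate 2 and short-day hour 19 replicate 1. The 13 markers of the pars distalis averaged 7.09 to 8.39 per array under long days and 7.07 to 8.43 under short days. A further pair of arrays stood apart. Over 17 clock genes that vary under short days, the 2 replicates correlated at 0.774 to 0.977 at the other hours, but at 0.00437 at long-day hour 19 and 0.0569 at long-day hour 23. Replicate 2 of hour 23 correlated at 0.953 with replicate 1 of hour 19, and replicate 2 of hour 19 at 0.708 with replicate 1 of hour 23. The labels were kept, and for a part of the calls printed here that change when both arrays are left out, the value without them is given. Not every such change is marked.

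The difference between long and short days changed with clock time for a small set of genes, led by Neurod1, Vegfd, Klhl41, Nr1d1, Ddit4l and Gadd45b. Of 18194 genes tested, 85 (0.467%) passed the test of an unequal difference over the 6 hours (limma F test, 5 degrees of freedom, Benjamini-Hochberg adjusted), and 118 (0.649%) passed with a 24 h cosine of the difference. By comparison, 46.7% of genes passed for the mean difference over the 6 hours, among them 55 of the 85. With only the 24 compared arrays in the model, 31 passed for the unequal difference and 29 with the cosine, in place of 85 and 118. The difference ran in opposite directions at different hours, past the threshold at each, for 32 of the 85. Of these 32, 23 still did so without the 2 long-day arrays that stood apart and 19 without the 4 arrays with high Gh or Prl. Each of the 85 has 1 hour at which its difference lies farthest from the mean of the other 5. That hour was 23 for 24 genes, 3 for 20, 7 for 17, 15 for 12, 11 for 10 and 19 for 2. A single hour can also be tested against the mean of the other 5. At hour 3, 18 genes deviated upward and 6 downward (0.0989% and 0.0330% of all, 0.132% together), among them Fst (2.11), Gem (1.81), Btg2 (1.34) and, downward, Dusp4 (-2.44) and Cplx3 (-1.44). At hour 23, 20 deviated upward and 11 downward (0.110% and 0.0605%, 0.170% together), led by Dusp4 (2.68) and Timeless (1.45) and by Neurod1 (-2.97) and Klhl41 (-1.86). Hour 11 had 1 upward and 12 downward (0.00550% and 0.0660%, 0.0715% together). Hour 7 had 2 upward, Oxt and Eya3, and 4 downward, Ddit4l, Vegfd, Dbp and Prokr2 (0.0110% and 0.0220%, 0.0330% together), the last of them named after its values were seen. Hour 15 had 4, all upward (0.0220%), Vegfd, Ddit4l, Nr1d1 and Fbxo32, of which Fbxo32 was also named after its values were seen. Hour 19 had 1, Ppp1r3c, downward (-0.84, 0.00550%), and 1286 genes at that hour (7.07%) had an unadjusted p below 0.05 (limma). Without the 2 long-day arrays that stood apart, 118 genes passed the interaction test, 66 of them among the 85. Without the 4 arrays with high Gh or Prl, 35 passed, 33 of them among the 85. Leaving out 1 array moved the count beyond 1.5 times in 3 cases, to 349 without replicate 1 of short-day hour 23, to 192 without replicate 2 of short-day hour 11 and to 185 without replicate 1 of long-day hour 23.

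**Figure D1:**
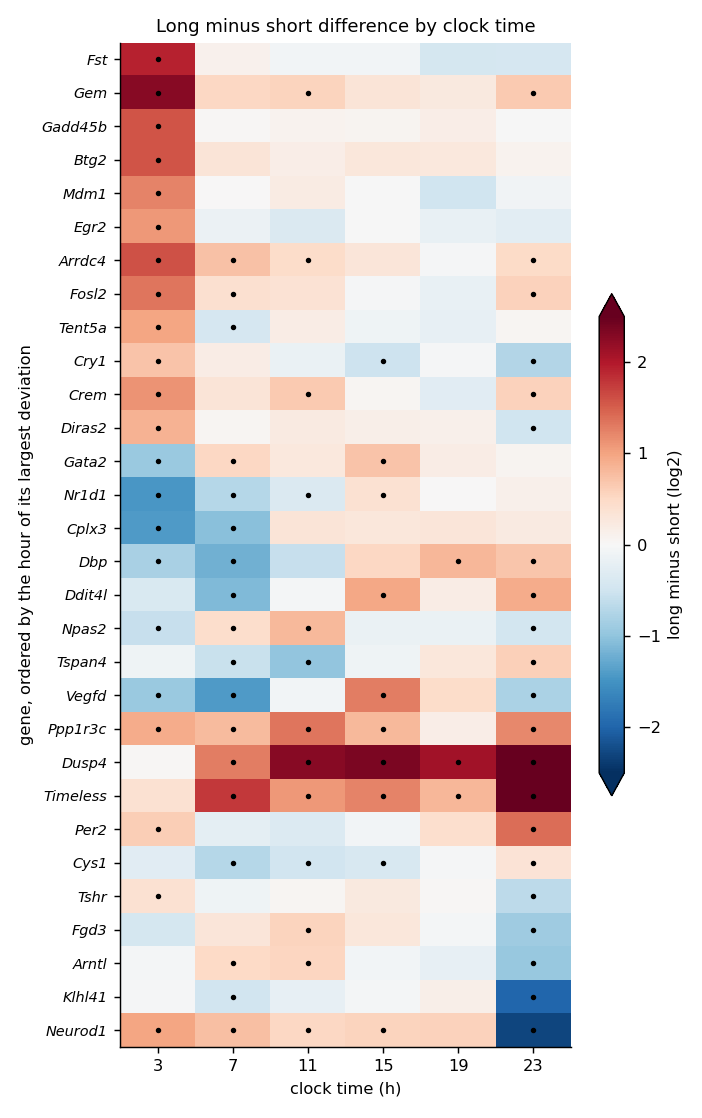
Long minus short difference (log2, colour, red higher under long days) at the 6 clock hours for the 30 named genes with the smallest interaction p, ordered by the hour at which the difference deviates most; dots mark hours that passed. Genes higher under long days at hour 3 fill the top (Gem 2.27, Fst 1.93), and Dusp4 (4.29), Timeless (2.51), Klhl41 (-1.99) and Neurod1 (-2.30) stand out at hour 23.

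The number of genes that differed at a single hour varied severalfold. At hour 11, 4450 genes passed (24.5%), at hour 7 3593 (19.7%), at hour 23 2704 (14.9%), at hour 3 2438 (13.4%), at hour 15 2304 (12.7%) and at hour 19 575 (3.16%). Lower levels under long days were the larger share at hours 3, 7, 11, 15 and 23, with 1812, 2237, 3140, 1332 and 1479 genes lower (9.96%, 12.3%, 17.3%, 7.32% and 8.13%) and 626, 1356, 1310, 972 and 1225 higher (3.44%, 7.45%, 7.20%, 5.34% and 6.73%). At hour 19, 325 were higher (1.79%) and 250 lower (1.37%). These counts depend on single arrays. At hour 3 the count was 708 to 1472 without any 1 of its 4 arrays. At hour 7 it was 1333 without replicate 2 of short days and 1700 without replicate 2 of long days, and at hour 11 it was 1392 without replicate 1 of short days and 2711 without replicate 2 of long days. At hour 15 it was 203 without replicate 1 of short days and 445 without replicate 2 of long days. At hour 19 it was 190 and 202 without replicates 1 and 2 of long days and 170 without replicate 1 of short days, and at hour 23 it was 1167 without replicate 2 of long days and 553 without replicate 2 of short days.

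Hour 3, lights-on under long days and 12 h after lights-off under short days, was marked by immediate early genes, which respond to signals within minutes without new protein synthesis. Gem, a small GTP-binding protein, read 9.13 and 8.99 under long days, against 7.06 and 6.52 under short days. At the other hours Gem lay between 6.97 and 7.59 under long days, so hour 3 stood alone. Its difference at hour 3 was 2.27 ± 0.19 (SE, 2 arrays a side, limma adjusted p = 1.21e-09), a 4.83-fold higher level. Btg2, an antiproliferative gene, read 11.16 and 11.37 under long days, against 9.72 and 9.69 under short days. Gadd45b, which responds to stress and DNA damage, read 9.92 and 10.003 under long days, against 8.59 and 8.21 under short days. For these genes the long-day arrays at hour 3 lay above every other array of either group. The differences at hour 3 were 1.56 ± 0.14 for Btg2 and 1.57 ± 0.13 for Gadd45b, and neither gene passed at another hour (interaction adjusted p = 4.24e-05 and 3.59e-06, limma).

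Other genes also had their largest difference at hour 3. Fst encodes follistatin, which binds activin, and read 8.68 and 8.89 at hour 3 under long days, against 6.98 and 6.73 under short days, a difference of 1.93 ± 0.27. Fosl2, a subunit of the AP-1 transcription factor, differed by 1.34 ± 0.14 at hour 3 with 10.17 and 10.07 under long days, against 8.95 and 8.61 under short days. Crem, a cAMP-responsive transcription factor with an inducible repressor form, differed by 1.13 ± 0.15. Egr2, a zinc finger transcription factor, differed by 1.09 ± 0.15, with 7.45 and 7.39 under long days and 6.29 and 6.37 under short days. The arrestin-domain gene Arrdc4 differed by 1.58 ± 0.15, Mdm1, a microtubule-binding centriole protein, by 1.24 ± 0.15 and the poly(A) polymerase Tent5a by 1.00 ± 0.14. Each of these 7 genes passed in the interaction, with limma adjusted p between 9.00e-05 and 0.00182. Junb, Maff and Nr4a3, named after their values were seen, passed as well and differed at hour 3 by 1.06 ± 0.18, 0.89 ± 0.12 and 0.67 ± 0.14.

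Over the whole immediate early list, 24 genes were measured and 8 passed in the interaction, against 0.467% of all genes. At hour 3, 12 of the 24 were higher and 1 lower under long days (3.44% and 9.96% of all genes), with a median difference of 0.49 against -0.04 for all genes. At hours 7, 11, 15, 19 and 23 the list had 2, 1, 0, 0 and 3 members higher and 0, 3, 1, 0 and 1 lower. Of all genes, 7.45%, 7.20%, 5.34%, 1.79% and 6.73% were higher at these hours and 12.3%, 17.3%, 7.32%, 1.37% and 8.13% lower. Without the 2 long-day arrays that stood apart 9 passed in the interaction, and without the 4 arrays with pars distalis hormones 5 did. Not all of the family took part. Fos read 10.71 on both long-day arrays at hour 3, against 10.41 and 10.49 under short days, and did not pass in the interaction. Egr1 read 12.05 and 11.88 under long days, against 11.23 and 11.26 under short days, and missed the interaction threshold (limma adjusted p = 0.0622).

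The arrays at the other group's lights-on did not show the same levels. At hour 7, when the lights came on under short days, Gem read 7.27 on both long-day arrays, against 6.997 and 6.49 under short days. Btg2 at that hour read 9.44 and 9.82 under long days, against 9.32 and 9.31 under short days, and Gadd45b read 8.10 and 8.19 under long days, against 8.12 and 8.11 under short days. So no short-day array of these 3 genes reached the long-day levels of hour 3, at lights-on or at any other hour. Second probe sets gave differences at hour 3 of 1.38 for Btg2, 1.22 for Egr2 and 1.30 for Mdm1, near those above, smaller ones for Fst (0.97) and Arrdc4 (0.47), and -0.07 for Fosl2. The 2 other probe sets of Gadd45b gave 1.08 and 0.38. With the mean of all its probe sets Crem did not pass in the interaction (limma adjusted p = 0.192).

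**Figure D2:**
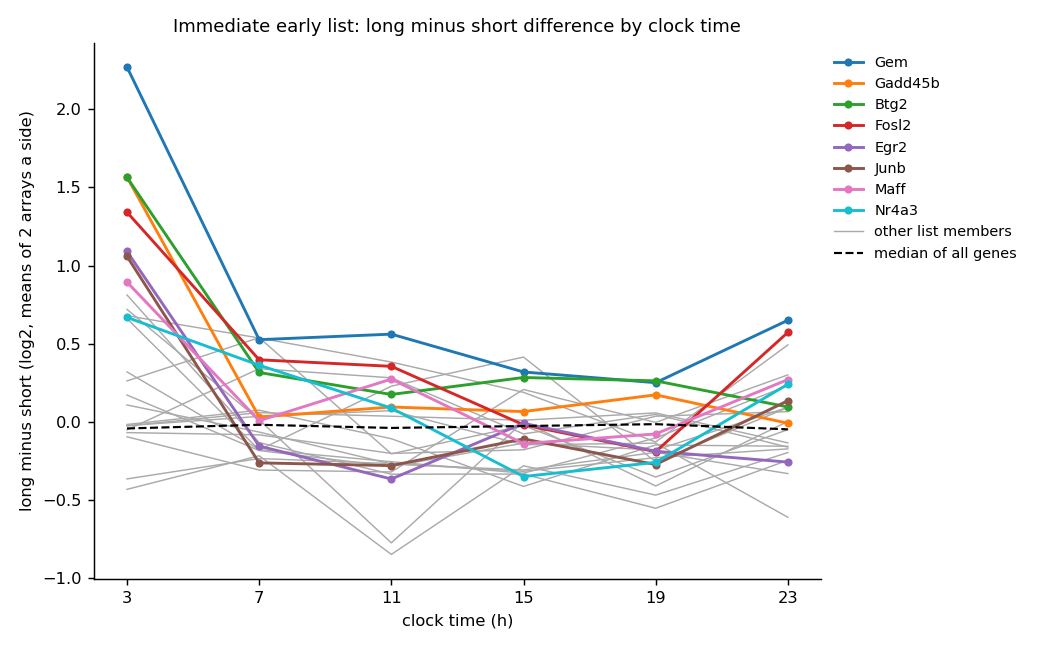
Long minus short difference (log2, means of 2 arrays a side) by clock hour for the 24 measured immediate early genes; the 8 that passed in the interaction are coloured, the others grey, and the dashed line is the median of all genes. The coloured lines stand between 0.67 (Nr4a3) and 2.27 (Gem) at hour 3, and at the later hours none of them exceeds 0.65 (Gem, hour 23).

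Hour 23, which follows lights-off by 4 h under long days and by 8 h under short days, held the largest differences of Neurod1, Klhl41, Dusp4 and Timeless. Neurod1, a basic helix-loop-helix factor of neuroendocrine cells, read 6.69 and 7.17 under long days, against 9.42 and 9.03 under short days, a difference of -2.30 ± 0.18 (limma adjusted p = 6.37e-11). At hours 3, 7, 11 and 15 its difference ran the other way and passed, from 0.52 to 0.99. Its short-day arrays at those hours and at hour 19 lay between 5.97 and 6.48, below all 12 long-day arrays. Neurod1 had the smallest p of all genes in the interaction (limma adjusted p = 4.42e-10), and its second probe set gave -2.55 at hour 23. Klhl41, a kelch protein known from muscle, read 5.28 and 5.68 under long days, against 7.45 and 7.49 under short days. Its difference was -1.99 ± 0.15 at hour 23, and of the other hours it passed at hour 7 (-0.49). Thus for both genes hour 23 held the highest short-day values, with no counterpart in the long-day arrays.

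Dusp4 and Timeless moved the other way. Dusp4, a phosphatase of MAP kinases, read 10.49 and 10.16 at hour 23 under long days, against 5.69 and 6.38 under short days, a 19.6-fold higher level (4.29 ± 0.32). At hour 3 it read 8.23 and 8.37 under long days, against 8.43 and 8.13 under short days, so that the groups overlapped and the difference was 0.02. Between these, the difference was 1.28 at hour 7 and 2.11 to 2.35 at hours 11, 15 and 19, all past the threshold. Timeless, a replication fork protein that also binds cryptochromes, read 11.46 and 11.64 at hour 23 under long days, against 9.14 and 8.93 under short days. Its difference was 2.51 ± 0.18 there, 1.77 at hour 7 and 0.37 at hour 3, where it did not pass. Hour 3 was thus the long-day minimum of both genes and hour 23 their short-day minimum. Tshr, the thyrotropin receptor, was lower at hour 23, with 8.50 and 8.61 under long days and 9.14 and 9.26 under short days (-0.64 ± 0.11), and higher at hour 3 (0.39 ± 0.11). Its other probe sets gave -0.34 and -0.27 at hour 23 and 1.09 and 0.04 at hour 3.

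The long-day side of the hour 23 comparison includes 1 array that stood apart. Without it and its counterpart at hour 19, Dusp4 differed by 1.54 and Neurod1 by 0.79 at hour 19, both past the threshold, and the differences at hour 23 were -2.54 for Neurod1, -2.19 for Klhl41, 4.45 for Dusp4, 2.43 for Timeless and -0.70 for Tshr. All 5 genes still passed at hour 23 and in the interaction.

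**Figure D3:**
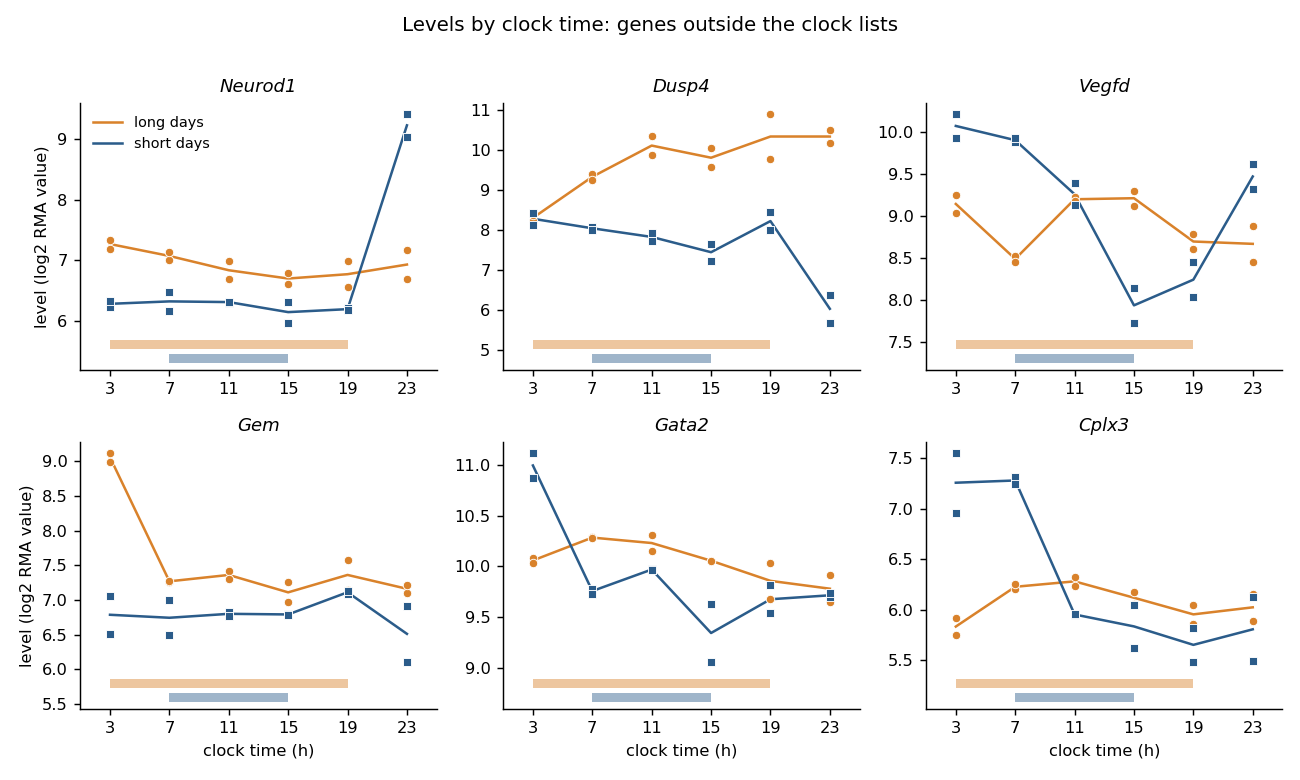
Levels (log2 RMA value) by clock time for 6 genes, with 1 point per array, lines through the means of 2 arrays, and bars at the foot for the hours of light (long days orange, upper bar; short days blue, lower bar). Short-day Neurod1 stands at 9.42 and 9.03 at hour 23, long-day Gem at 9.13 and 8.99 at hour 3, and the lines cross for Neurod1, Vegfd, Gata2 and Cplx3.

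Several genes were higher under long days at one hour and lower at another. Vegfd, a growth factor of lymphatic vessels, read 8.53 and 8.45 at hour 7 under long days, against 9.87 and 9.93 under short days, a difference of -1.41 ± 0.18. At hour 15 it read 9.12 and 9.30 under long days, against 7.73 and 8.14 under short days, a difference of 1.27 ± 0.18. It was also lower at hours 3 (-0.93) and 23 (-0.80), and the group means ranged over 0.72 under long days and 2.13 under short days. Its other probe sets, with differences shifted upward at every hour, gave -0.77 and -0.73 at hour 7 and 1.90 and 1.89 at hour 15. Ddit4l, an inhibitor of mTOR signalling, had the same order: -1.11 ± 0.17 at hour 7, 0.97 ± 0.17 at hour 15 and 0.92 ± 0.17 at hour 23. Vegfd and Ddit4l, with Dbp and Celsr1, were the 4 genes (0.0220%) whose difference at hour 7 minus that at hour 19 passed, by -1.86, -1.30, -2.02 and -0.75. This count was 1 without replicate 2 and 37 without replicate 1 of short-day hour 7, and it was 19 without the 2 long-day arrays that stood apart.

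Hour 3 also held genes that were lower under long days. Gata2, a transcription factor of thyrotrophs that acts with POU1F1 on Tshb, read 10.08 and 10.04 at hour 3 under long days, against 10.87 and 11.12 under short days (-0.93 ± 0.13). It was higher under long days at hours 7 (0.53 ± 0.13) and 15 (0.71 ± 0.13), and a second probe set gave -0.94, 0.36 and 0.57 at these hours. Cplx3, a complexin of synaptic vesicle release, read 5.75 and 5.92 at hour 3 under long days, against 7.56 and 6.96 under short days (-1.43 ± 0.21), and it was lower at hour 7 as well (-1.05 ± 0.21). At the other 4 hours its difference was 0.22 to 0.33 and did not pass. Diras2, a Ras-like GTPase, was higher by 0.87 ± 0.10 at hour 3 and lower at hour 23, by -0.49 ± 0.10.

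The courses of the clock genes lay later by the clock under long days. Of 25 measured members of the 5 clock lists, 13 passed in the interaction, against 0.467% of all genes, and 13 passed with the cosine. They were Per2, Per3 and Cry1 among 5 period and cryptochrome repressors, Arntl and Npas2 among 4 activators, Nr1d1 and Nr1d2 among 4 REV-ERB and ROR receptors, Dbp and Tef among 5 output factors, and Ciart, Timeless, Bhlhe40 and Usp2 among 7 other repressors, kinases and partners. The other 12 did not pass, among them Per1 (limma adjusted p = 0.101), Nfil3 (0.148), Clock (0.637) and Cry2 (0.888). Without the 2 long-day arrays that stood apart 12 passed, with Bhlhe40 and Usp2 no longer among them and Per1 added (limma adjusted p = 0.0153), and without the 4 arrays with pars distalis hormones 7 passed.

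Among the repressors, Per2 read 8.80 and 9.32 at hour 23 under long days, against 7.73 and 7.60 under short days, a difference of 1.39 ± 0.14. At hours 7, 11 and 15 its groups differed by -0.34 to -0.06 and did not pass. Per3 had its largest difference at the same hour (0.83 ± 0.13). Cry1 read 8.09 and 7.89 at hour 3 under long days, against 7.37 and 7.19 under short days (0.72 ± 0.13), and 7.52 and 7.62 at hour 23 under long days, against 8.34 and 8.26 under short days (-0.73 ± 0.13). Cry1 thus crossed between these adjacent hours. A low second probe set of Per2 gave differences of -0.14 to 0.01, and another gave 0.69 at hour 23 and -0.88 at hour 11.

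Of the activators, Arntl was lower at hour 23, with 8.93 and 8.26 under long days and 9.53 and 9.55 under short days (-0.94 ± 0.15), and higher at hours 7 (0.49 ± 0.15) and 11 (0.53 ± 0.15). Npas2 was lower at hour 3 (-0.57 ± 0.13) and higher at hour 11, with 5.95 and 5.99 under long days and 5.14 and 5.17 under short days (0.81 ± 0.13). Nr1d1, which encodes REV-ERB alpha, read 7.08 and 7.14 at hour 3 under long days, against 8.61 and 8.52 under short days, a difference of -1.45 ± 0.13 (limma adjusted p = 4.30e-09). It was also lower at hours 7 (-0.72 ± 0.13) and 11 (-0.36) and higher at hour 15 (0.39). Dbp, an output factor that binds D-boxes, was lower at hour 7, with 11.22 and 11.10 under long days and 12.22 and 12.50 under short days (-1.20 ± 0.24), and higher at hours 19 (0.82 ± 0.24) and 23 (0.69 ± 0.24). Dbp at long-day hours 19 and 23 read 12.35 and 11.34, and 11.004 and 12.36, on the arrays that stood apart and their partners. Without replicate 2 of both hours its difference was 1.33 at hour 19 and 0.01 at hour 23, while those at hour 23 were 1.14 for Per2, 0.65 for Per3, -0.78 for Cry1 and -0.61 for Arntl.

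Peak times were read from a 24 h cosine for the 15 clock list genes in which that cosine passed in both groups. The peak lay later by the clock under long days for all 15, by 0.820 h (Timeless) to 4.87 h (Dbp), with a median of 3.86 h. The 95% interval of the shift excluded 0 for 14, and it included 4 h, the difference in the time of lights-off, for 13. The 2 that did not include 4 h were Timeless and Cry1. Per2 peaked at hour 18.97 ± 0.26 under long days and at 15.27 ± 0.27 under short days (SE). Nr1d1 peaked at 12.30 ± 0.32 under long days and 8.20 ± 0.26 under short days, Dbp at 15.05 ± 0.43 under long days and 10.18 ± 0.38 under short days, and Arntl at 5.37 ± 0.36 under long days and 1.65 ± 0.34 under short days. With all arrays, the amplitude was larger under long days for 3 of the 15. The long-day fits include the 2 arrays that stood apart, and the amplitudes were not compared without them. The count therefore does not settle which day length had the larger amplitudes. Over all 317 genes with a cosine in both groups the median shift was 2.99 h, and 298 peaked later and 19 earlier under long days. The median over the 15 was 3.68 h without the 2 long-day arrays that stood apart, with intervals that excluded 0 for 14 and included 4 h for 13. The 2 that did not include 4 h were then Timeless and Dbp (4.09 to 5.26 h), while the interval of Cry1 did (2.00 to 4.12 h).

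**Figure D4:**
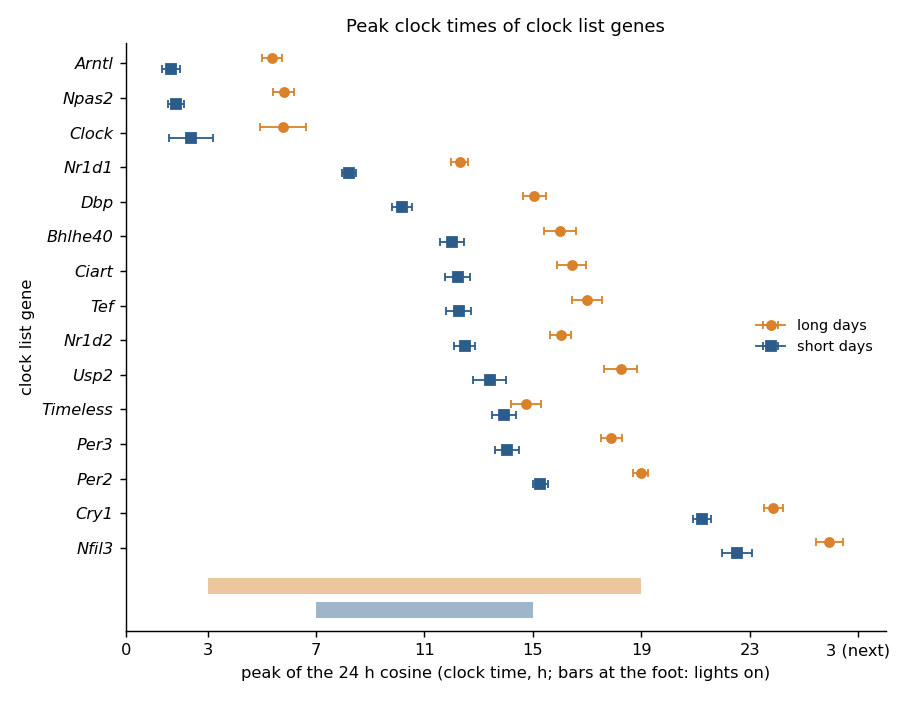
Peak clock time (h) of the 24 h cosine for the 15 clock list genes, with long days (orange circles) drawn above short days (blue squares) and bars for SE; long-day peaks past midnight are drawn to the right, and bars at the foot show the hours of light. Long-day peaks lie right of short-day peaks for every gene, least for Timeless (0.820 h) and most for Dbp (4.87 h).

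The pairing of the arrays set how many genes differed in course. Paired by hours from lights-on, 782 genes passed the same test, with 17 of the 25 clock genes. Paired by hours from lights-off, 50 passed, with 1 clock gene, Timeless (limma adjusted p = 0.0343). Per2 had an adjusted p of 7.24e-06 by clock time and 0.987 by lights-off, Nr1d1 of 6.28e-07 and 0.164, Cry1 of 9.28e-05 and 0.517, and Dbp of 2.97e-04 and 0.525. A p above the threshold does not show that the courses were alike. Other genes passed in both pairings. Neurod1 had 4.42e-10 by clock time and 2.64e-08 by lights-off, Vegfd 8.84e-08 and 2.66e-06, Gadd45b 3.59e-06 and 2.64e-08, Btg2 4.24e-05 and 3.74e-08, Gem 9.00e-05 and 2.93e-06, and Fst 0.00182 and 3.16e-06. Dusp4 passed by clock time (9.99e-06) and not by lights-off (0.436), and Egr1 passed by lights-off (1.39e-06) and not by clock time (0.0622).

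For thyrotropin itself no dependence on the hour passed the test. Tshb differed by 3.40 to 3.79 at the 6 hours, with an SE of 0.39 at each, and its interaction adjusted p was 0.994. Cga passed at hour 15 alone (0.44 ± 0.14) and not in the interaction (adjusted p = 0.461, limma). Of 10 measured thyrotropin and photoperiod genes, 4 passed in the interaction, against 0.467% of all genes: Eya3, Dio2, Tshr and Gata2. Eya3, a transcriptional co-activator of Tshb, read 10.71 and 10.88 at hour 7 under long days, against 8.95 and 9.005 under short days, a 3.52-fold higher level (1.81 ± 0.18). At hour 3 it read 9.46 and 9.69 under long days, against 9.30 and 9.21 under short days, and the difference of 0.32 did not pass. At hours 11 to 23 the difference was 0.71 to 0.98 and passed. At hour 19 the long-day arrays were 9.60 and 10.58, and without the 2 arrays that stood apart the difference there was 0.30 and did not pass. Its interaction adjusted p was 0.0277, which became 0.284 without the 4 arrays with pars distalis hormones (limma). A second probe set gave 1.06 at hour 7 and 0.45 at hour 3.

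Dio2, deiodinase 2, ranged more widely under short days. Its long-day arrays lay between 13.43 and 13.69 at all hours, while its short-day arrays ran from 11.88 at hour 11 to 13.28 at hour 19. The difference was 1.49 ± 0.14 at hour 11 and 0.52 ± 0.14 at hour 19 and passed at every hour with all arrays. At hour 19 it was 0.48 and did not pass without the 2 long-day arrays that stood apart (limma adjusted p = 0.196). The interaction stood at the threshold (adjusted p = 0.0489, and 0.102 without the 2 long-day arrays that stood apart and 0.637 without the 4 with pars distalis hormones, limma). Ppp1r3c, a glycogen-targeting subunit of protein phosphatase 1, had a like course, with short-day arrays highest at hour 19 (12.36 and 12.28) and a difference of 1.34 ± 0.12 at hour 11 and 0.17 ± 0.12 at hour 19. Without the 4 arrays with pars distalis hormones these differences were 1.35 and 0.21. Ppp1r3c passed in the interaction, but not with the mean of all its probe sets and not without the same 4 arrays. Mtnr1a, the melatonin receptor, read 9.85 and 8.30 at hour 23 under long days, against 7.15 and 7.003 under short days (2.00 ± 0.40). At hour 19 its long-day arrays stood far apart, at 8.17 and 10.41, against 9.63 and 9.07 under short days. Its interaction adjusted p was 0.422 with all arrays. Without the 2 long-day arrays that stood apart the gene passed in the interaction, with a difference of -1.18 at hour 19 and 2.77 at hour 23. Hlf, an output factor related to Dbp, passed at every hour with all arrays, by 0.44 to 0.98, with an interaction adjusted p of 0.53. Without the same 2 arrays its difference at hour 19 was 0.49 and did not pass (limma adjusted p = 0.129).

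**Figure D5:**
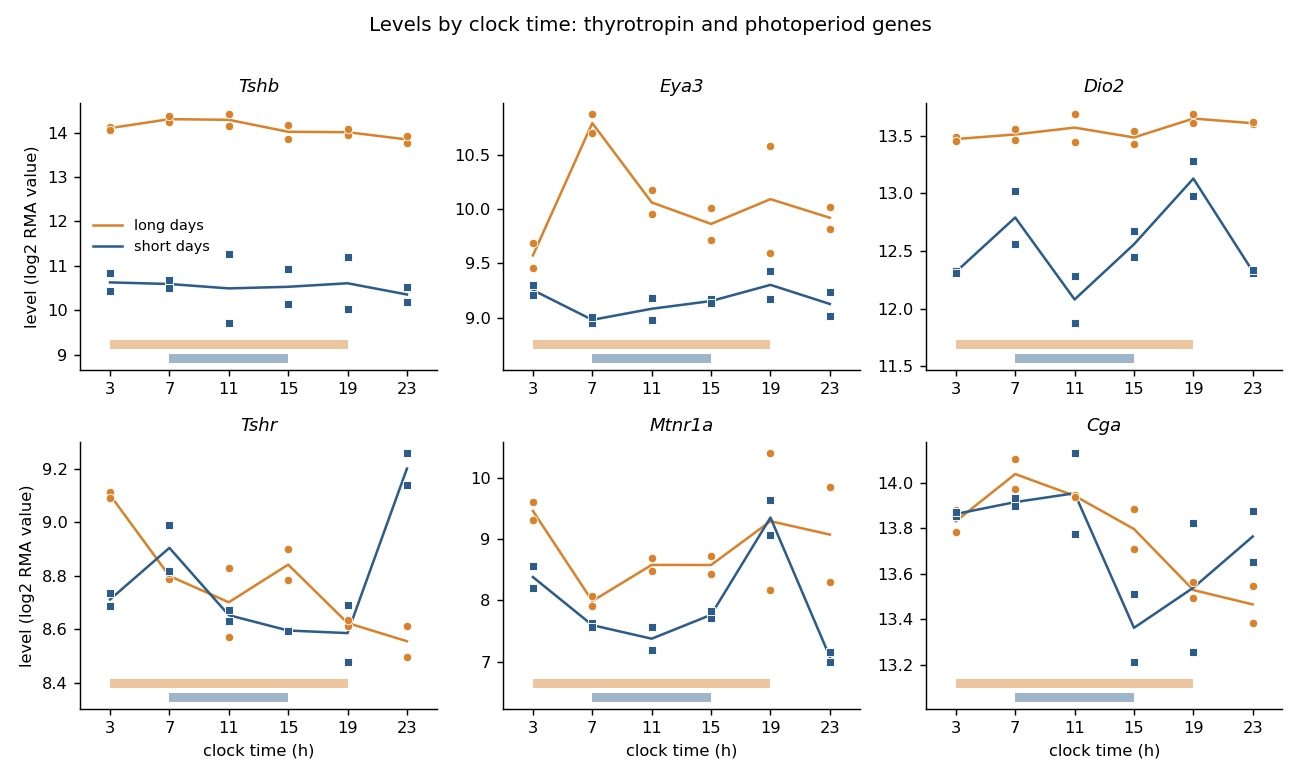
Levels (log2 RMA value) by clock time for 6 thyrotropin and photoperiod genes, drawn as 1 point per array with lines through the means of 2 arrays and bars at the foot for the hours of light (long days orange, upper bar; short days blue, lower bar). Tshb differs by 3.40 to 3.79 at every hour, Eya3 is widest apart at hour 7, and the long-day arrays of Mtnr1a at hour 19 (8.17 and 10.41) and hour 23 (9.85 and 8.30) spread widely.

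With all arrays, 4 gene lists described in this paragraph had 1 passing member each in the interaction, against 0.467% of all genes. Other lists with 1 such member included 10 measured MAP kinase phosphatases (Dusp4), 10 VEGF ligands and receptors (Vegfd) and 12 follistatin and activin genes (Fst). Without the 2 long-day arrays that stood apart, 2 melatonin and cAMP, 3 glucocorticoid responsive, 2 heat shock and 3 folding genes passed, and without the 4 arrays with pars distalis hormones 1, 1, 1 and 0 did. Of 21 melatonin and cAMP signalling genes Crem passed, and at hour 23 11 were higher and 4 lower under long days (6.73% and 8.13% of all genes), with a median of 0.28. Of 15 glucocorticoid responsive genes Fkbp5, a co-chaperone of the glucocorticoid receptor, passed. It was lower under long days at hours 3 (-0.46), 7 (-0.45), 11 (-0.89 ± 0.14) and 15 (-0.84 ± 0.14), with 9.38 and 9.54 under long days and 10.34 and 10.26 under short days at hour 15, and at hour 23 the difference was 0.34 and did not pass. Of 9 heat shock genes Hspa1b passed, with -0.88 ± 0.18 at hour 15 and 0.45 ± 0.18, not past the threshold, at hour 23. Its hour 23 difference without the 2 long-day arrays that stood apart was 0.67 and passed (limma adjusted p = 0.0320). Of 23 endoplasmic reticulum folding genes Herpud1 passed (-0.60 ± 0.11 at hour 11 and 0.33 ± 0.11 at hour 23, which was 0.20 and did not pass without the 2 long-day arrays that stood apart). At hour 7, 10 of the 23 were higher and 3 lower under long days, against 7.45% and 12.3% of all genes.

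No member passed in the interaction among 34 measured complex I genes, 29 ribosomal protein genes, 16 cell cycle genes, 14 secretory granule genes, 12 cholesterol synthesis genes or 11 hedgehog pathway genes. Over all genes 0.467% passed, so the lack of a passing member in lists of these sizes is near that share. At hour 11, 16 of the 34 complex I genes were lower under long days, against 17.3% of all genes. At hours 3, 7, 15, 19 and 23 the number lower was 7, 5, 2, 0 and 7 of 34, against 9.96%, 12.3%, 7.32%, 1.37% and 8.13% of all genes, and 1 was higher at hour 7 (7.45% of all genes).

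Markers of neighbouring cell types moved at some hours. Oxt, the neuropeptide oxytocin of hypothalamic neurons, read 12.42 and 12.60 at hour 7 under long days, against 10.48 and 10.43 under short days, and its difference of 2.05 ± 0.23 there passed, as did its interaction (limma adjusted p = 0.0277, and 0.478 without the 4 arrays with pars distalis hormones). It also passed at hours 3 (0.99), 19 (1.01) and 23 (0.87), the last being 0.56 and not past the threshold without the 2 long-day arrays that stood apart. The 20 measured neuron markers averaged 10.54 and 10.59 at hour 7 under long days, against 10.29 and 10.43 under short days. Of these markers 4 were higher and 3 lower at that hour (7.45% and 12.3% of all genes), with a median difference of 0.11. Igf2, a growth factor of the meninges, was higher at hour 7 (0.88 ± 0.17) and lower at hour 11 (-0.68 ± 0.17), and its interaction adjusted p of 0.00494 became 0.107 without the same 4 arrays (limma). At hour 11, 6 of 12 meningeal and fibroblast markers were lower (17.3% of all genes), and the list averaged 10.32 and 10.56 under long days, against 10.75 and 10.82 under short days. At hour 7, 4 were higher (7.45% of all genes), with list means of 10.65 and 10.73 under long days, against 10.42 and 10.52 under short days. The part of such tissue in the differences at these hours was not tested. At hour 3, where the immediate early genes stood high, the meningeal list averaged 10.60 and 10.68 under long days, against 10.48 and 10.59 under short days, and the neuron list 10.25 and 10.29 under long days, against 10.40 and 10.49 under short days.

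Few genes passed in the contrast of the hours that follow 4 h lit under long days alone. The mean difference at hours 7 and 19 minus that at the other 4 hours passed for 2 genes (0.0110%), Ddit4l (-0.83) and Ppp1r3c (-0.59), and 1464 (8.05%) had an unadjusted p below 0.05 (limma). This count was 0 (without replicate 2 of short-day hour 7) to 17 (without replicate 2 of short-day hour 15) with 1 array left out and 15 without the 2 long-day arrays that stood apart. Hours 11 and 15, after 4 h lit in both groups, were set against hours 23 and 3, after 4 h dark in both. The first mean difference minus the second passed for 47 genes (0.258%), 18 of them positive and 29 negative (0.0989% and 0.159%). Vegfd (1.47), Neurod1 (1.19) and Fgd3 (1.08) led the positive side, and Per2 (-1.20), Gem (-1.02), Hspa1b (-0.96) and Filip1l (-0.88) the negative. Hour 3 is itself lights-on under long days, and Gem differed by 2.27 there and by 0.65 at hour 23. With 1 array left out the count lay between 15 (without replicate 1 of long-day hour 15) and 145 (without replicate 1 of short-day hour 23).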

How the data were processed

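Total RNA from pooled pars tuberalis punches was hybridised to 1-colour arrays, and the submitters' processing notes name RMA and R 2.8.0. The values the authors deposited are log2 signals per probe set and were used as deposited. Of 45101 probe sets, 34958 have 1 gene symbol, 932 several and 9211 none. Each of 18194 genes was represented by its probe set of highest mean, and 9012 genes had several.

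A model of 24 group means over all 48 arrays (24 residual degrees of freedom) was fitted with limma 3.58.1 in R 4.3.3, with empirical Bayes moderation trended on the level. The difference at each hour, the 5-degree-of-freedom interaction, the deviation of 1 hour from the mean of the other 5, 3 contrasts of hours and a 24 h cosine were tested, with Benjamini-Hochberg adjustment over all genes. Peak SE values come from the delta method. The number of arrays limits the precision. The tests were tried on simulated data with known changes. No 2 arrays were identical (pairwise correlation 0.984 to 0.998).

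The genes and lists were chosen with earlier results of these data known. Named genes were the 30 with the smallest interaction p, the 5 largest differences each way per contrast, all clock genes, 7 photoperiod genes and up to 4 of each other list. Junb, Maff, Nr4a3, Egr1, Fos, Prokr2, Fbxo32 and the genes named for a motif alone were chosen after their values were seen. Array alternatives were leaving out each array, 2 or 4 arrays, other pairings, filters and blocks.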

Additional observations from a re-analysis of the deposited data

Results flagged for a closer look

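Among the 30 genes with the smallest interaction p, 15 had a long minus short difference (log2) that passed at 1 or more hours upward and at 1 or more downward, and the change of the difference over the hours passed in the interaction test itself. The highest and the lowest passing difference of each are given here. Of the genes of the clock, Nr1d1 differed by 0.39 at hour 15 and by -1.45 at hour 3, Npas2 differed by 0.81 at hour 11 and by -0.57 at hour 3, and Cry1 differed by 0.72 at hour 3 and by -0.73 at hour 23. Likewise, Dbp differed by 0.82 at hour 19 and by -1.20 at hour 7, and Arntl differed by 0.53 at hour 11 and by -0.94 at hour 23. Of the other genes described above, Neurod1 differed by 0.99 at hour 3 and by -2.30 at hour 23, Vegfd differed by 1.27 at hour 15 and by -1.41 at hour 7, and Ddit4l differed by 0.97 at hour 15 and by -1.11 at hour 7. In addition, Diras2 differed by 0.87 at hour 3 and by -0.49 at hour 23, Gata2 differed by 0.71 at hour 15 and by -0.93 at hour 3, and Tshr differed by 0.39 at hour 3 and by -0.64 at hour 23. The poly(A) polymerase gene Tent5a differed by 1.00 at hour 3 and by -0.43 at hour 7. The tetraspanin gene Tspan4 differed by 0.59 at hour 23 and by -0.98 at hour 11. Its hour 23 difference without the 2 long-day arrays that stood apart was 0.29 and did not pass (limma adjusted p = 0.139), while 0.63 at hour 19 did (0.00386). Cys1, a gene of the primary cilium, differed by 0.35 at hour 23 and by -0.70 at hour 7. Without the same arrays its hour 23 difference was 0.33 and did not pass (limma adjusted p = 0.115), and it alone of the 15 no longer had both directions. Without the 4 arrays with high Gh or Prl, Arntl, Dbp, Nr1d1 and Tent5a no longer had both. Fgd3, a guanine nucleotide exchange factor, differed by 0.55 at hour 11 and by -0.90 at hour 23.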

How the results depend on the processing

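Of the 30 named genes with the smallest interaction p, 24 passed under every alternative tried for them that kept the pairing by clock time. The exceptions were Tspan4, Cys1, Arntl, Fgd3, Ppp1r3c and Crem. There were 34 such alternatives, but 33 for Npas2, which was removed with the dim genes. Paired by lights-on all 30 passed, and paired by lights-off 18 did. With each array left out in turn, the interaction count was 60 to 349 (without replicate 2 of long-day hour 7 and replicate 1 of short-day hour 23). Genes differing at hours 3, 7, 11, 15, 19 and 23 numbered 708 to 2656, 1333 to 3796, 1392 to 4811, 203 to 2956, 170 to 678 and 553 to 3624. Genes deviating at these hours, 24, 6, 13, 4, 1 and 31 with all arrays, numbered 17 to 29, 2 to 39, 1 to 782 (highest without replicate 2 of short-day hour 11), 1 to 40, 0 to 10 and 13 to 807 (highest without replicate 1 of short-day hour 23). The contrast of the hours lit under long days alone gave 0 to 17, morning against evening 1 to 37, lit against dark hours 15 to 145, the cosine 76 (without replicate 2 of short-day hour 7) to 281 (without replicate 1 of short-day hour 23), and the median peak shift 3.35 to 4.19 h.

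With the 24 arrays alone in the model, 31 genes passed in the interaction, 1541, 1484, 276 and 1703 at hours 3, 15, 19 and 23, 2, 1, 1 and 9 for the deviation at hours 7, 11, 15 and 23, 1, 1 and 8 for the 3 contrasts of hours in the same order, and 29 with the cosine. Quantile normalization repeated over these arrays gave 30 in the interaction. Leaving out dim genes gave 11 for the deviation at hour 7.

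Without the 2 long-day arrays that stood apart, 251 and 1173 genes passed at hours 19 and 23. The deviations at hours 7, 11, 15, 19 and 23 numbered 15, 25, 16, 11 and 18, the contrast of hours lit under long days alone 15 and morning against evening 19. Without the 4 arrays with Gh or Prl above 10, a choice made after seeing the data, 35 passed in the interaction, 1629, 2927, 375 and 152 at hours 7, 11, 15 and 19, and 3, 1, 2 and 0 for the deviation at these hours. The contrasts gave 0, 1 and 17 and the cosine 33. Paired by lights-on, 782 passed in the interaction and 1479 with the cosine, and paired by lights-off 50 and 31. The causes of these changes were not tested.

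The labels do not say whether arrays with the same replicate number share anything else. Same-numbered arrays deviated together with a median correlation of 0.0328 (-0.183 to 0.491) under short days and 0.238 (0.0869 to 0.401) under long days. With a replicate block within each condition 138 genes passed in the interaction, including all 85, the deviations at hours 7, 11, 15, 19 and 23 numbered 36, 66, 10, 3 and 52, morning against evening 10, lit against dark 77, and the cosine 209.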
